A study of Mus musculus with 8 samples.

Results

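Mitochondrial ribosomal proteins are encoded in the nucleus, made in the cytosol and imported into mitochondria, where they build the ribosome that translates the proteins encoded by mitochondrial DNA, all of them subunits of the oxidative phosphorylation complexes. The large subunit joins amino acids and the small subunit reads the messenger RNA. Some of the proteins descend from bacterial ribosomal proteins and others were added in the mitochondrial lineage. The genes described here are the probes whose platform annotation carries a symbol of the form Mrpl or Mrps followed by a number. There were 72 such probes of 21582 on the array, each for a different gene, and 69 of them were measured on enough arrays to be tested, out of 15345 probes tested in all.

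The RNA came from mouse cortical neurospheres, which are balls of cells that neural progenitors form in suspension, derived at gestational day 12.5. Control cultures grew in medium with basic fibroblast growth factor, epidermal growth factor (EGF) and leukaemia inhibitory factor (LIF), and were then differentiated by removing EGF and LIF. Treated cultures received 320 mg/dl ethanol in the growth medium for 5 days and were then differentiated in the same way for 3 days without ethanol, so that fibroblast growth factor was present in both groups throughout. Control and treated RNA were hybridised together on 8 two-colour arrays, with treated RNA in Cy3 on 4 arrays (replicates 1 to 4) and in Cy5 on the other 4 (replicates 5 to 8). The labels name no strain and do not say whether different arrays hold different cultures. The p-values therefore rest on the scatter among the 8 arrays, part or all of which may be technical.

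Each value is a log2 ratio of the 2 RNAs of 1 array, given relative to that array's median. The labels do not say which RNA or dye was divided by which. Each probe was therefore described by 2 quantities. The shared part is the mean of the log2 ratios over both dye orientations, where a treatment difference would appear if every ratio had the same RNA on top. The turning part changes sign with the dye orientation, where it would appear if every ratio had the same dye on top. In either case a difference between the dyes at a probe would lie in the other part. Which part holds treatment differences and which holds dye differences is therefore unknown. A positive shared part lies above the median of the arrays, and a positive turning part is a higher ratio with treated RNA in Cy5. The signs below are those of the deposited values and give no direction for the effect of ethanol. The file holds no intensities, so that levels of expression, and the level of one gene against another, are not known. As RNA came from whole cultures, a change in the number of cells of a type and a change of RNA per cell cannot be told apart.

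In the shared part most mitochondrial ribosomal protein genes lay on the positive side by a small amount, and none passed on its own. Of the 69 members 59 (85.5%) were positive and 10 negative, and their median was 0.39 log2 units. Of all 15345 probes 46.1% were positive and the median was -0.06. The share positive was also high in related lists described below, at 83.8% for cytosolic ribosomal and 78.2% for respiratory chain probes. No member reached an adjusted p of 0.05 (limma over all probes tested, lowest adjusted p = 0.243), and no probe of the series did (0%). At an unadjusted p under 0.05 there were 12 members, all positive, which is 17.4% of the members, where 4.88% of all probes were called on the positive side and 9.01% on the negative side. That count was 7 without the 3 arrays whose code ends in r (replicates 3, 4 and 8). Leaving out single arrays gave 5 without replicate 1 or 2, 6 without replicate 5 or 7, 7 without replicate 3 or 6, 9 without replicate 4 and 12 without replicate 8. These fits tested 68 to 71 members. Fewer arrays give every probe a less precise estimate, and the shares of all probes in these fits are not given here. The counts therefore do not show whether the members were affected more than other probes.

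**Figure D1:**
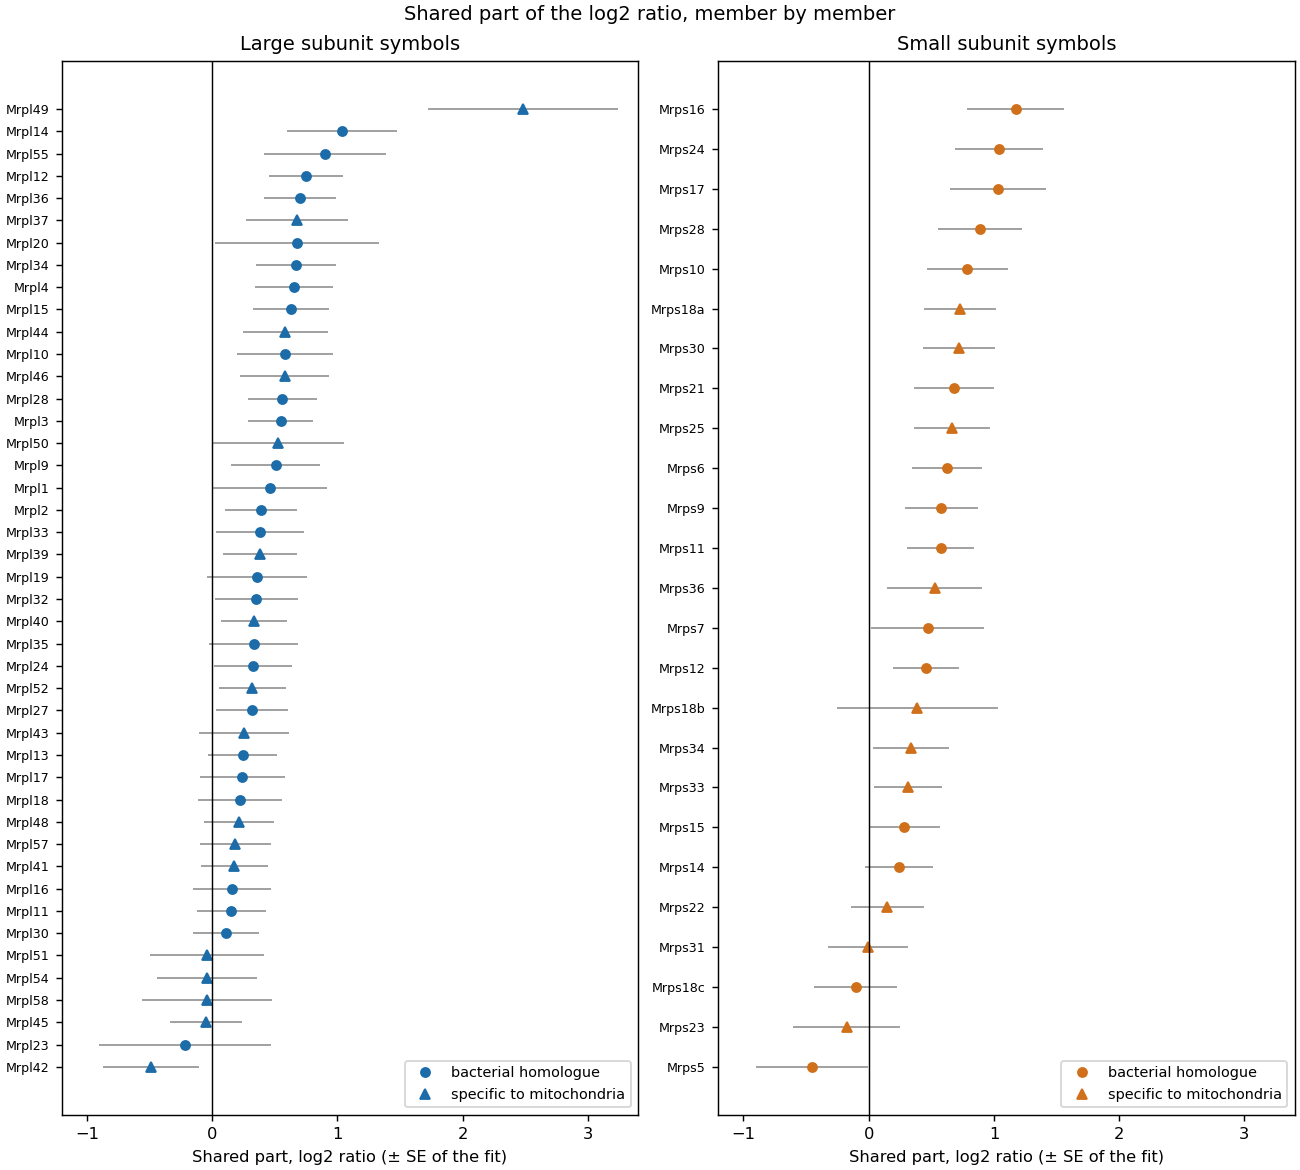
Shared part of the log2 ratio (x axis, with the SE of the fit as bars) for each of the 44 members named Mrpl (left) and the 25 named Mrps (right), sorted by value. Circles are proteins classed by the ribosomal protein nomenclature as having a bacterial homologue. Triangles, labelled specific to mitochondria, are all other members. Of the 69 points 59 lie right of 0, and Mrpl49 stands furthest right at 2.48 with the widest bar.

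The positive side was seen on each array. With treated RNA in Cy3 the median over the members was 0.86, 0.62, 0.46 and 0.32 on replicates 1, 2, 3 and 4. With treated RNA in Cy5 it was 0.19, 0.56, 0.40 and 0.15 on replicates 5, 6, 7 and 8. The medians were thus positive on 8 of 8 arrays, and the ranges of the 2 orientations overlapped. Replicate 8 was the lowest, with 40 of 69 members positive (58.0%), and replicate 3 had the highest share, 58 of 68 (85.3%). Of all probes tested, 54.0% were positive on replicate 8 and 49.0% on replicate 3. Among probes with 8 values the median on replicate 8 was 0.16 for members and 0.17 for all, so the members did not stand out there. As deposited, before arrays were centred, the member medians ran from -0.01 on replicate 4 to 0.79 on replicate 6. With arrays centred on the probes measured on all 8 arrays, they ran from -0.02 on replicate 8 to 1.00.

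The members were also measured more steadily than most probes. A value was computable on all 8 arrays for 62 of the 69 (89.9%), against 68.3% of all probes tested, and the SE was under the median SE of all probes for 84.1% of the members. For cytosolic ribosomal probes these shares were 97.3% and 89.2%, and for respiratory chain probes 92.3% and 88.5%, so both lists were steadier still. The share of single values within 1 log2 unit of the array median was 74.3% for the members and 53.1% for all probes. Among the 3646 probes with 8 values and an SE of at most 0.36, the upper quartile among members with 8 values, the median shared part was 0.09, 57.3% were positive and 7.02% had an unadjusted p under 0.05 on the positive side. The 46 members within the same bounds had a median of 0.37, with 93.5% positive and 17.4% under that p. These bounds were chosen after the values were seen, and the part of the smaller spread in the members' counts was not tested.

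**Figure D2:**
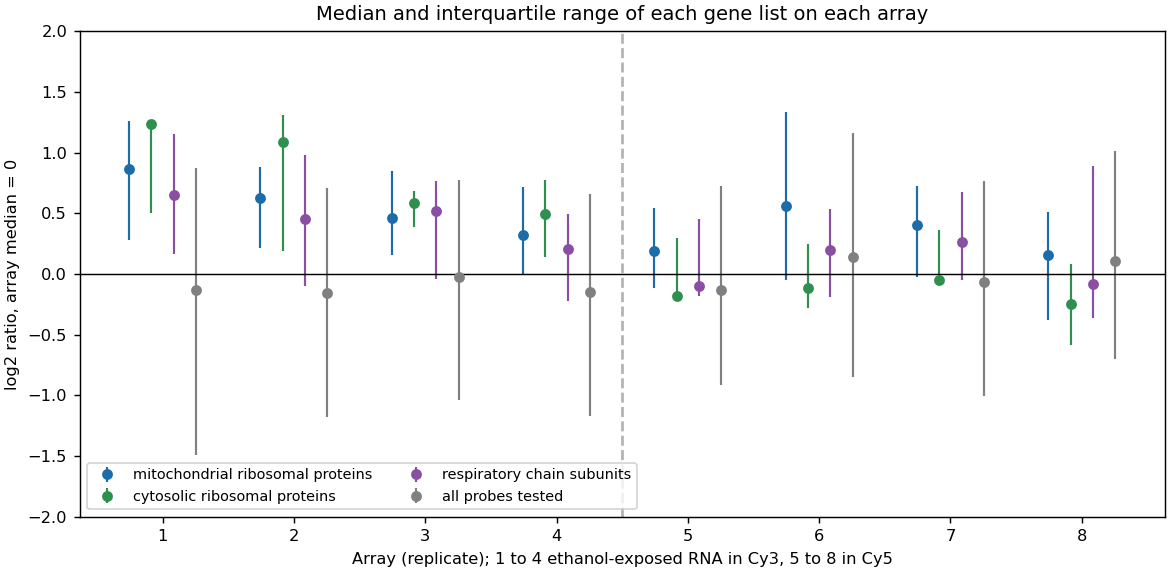
Median (point) and interquartile range (bar) of the log2 ratio on each of the 8 arrays (x axis; the dashed line separates the dye orientations) for 4 gene lists, with the array median at 0. The mitochondrial ribosomal proteins lie above 0 on all 8 arrays, from 0.15 to 0.86, while the cytosolic ribosomal proteins lie above 0 on replicates 1 to 4 and below 0 on replicates 5 to 8; before centring the cytosolic medians on replicates 5, 6 and 8 were positive, at 0.13, 0.11 and 0.27.

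By subunit, 38 of 44 genes named Mrpl, of the large subunit, were positive with a median of 0.35, and 21 of 25 named Mrps, of the small subunit, with a median of 0.53. An unadjusted p under 0.05 was found for 4 of the Mrpl genes (9.09%) and 8 of the Mrps genes (32.0%). All were positive, where 4.88% of all probes were called on the positive side. Despite their names, the products of Mrps18a and Mrps30 sit in the large subunit, and both genes are among these 8. The product of Mrps36 is now known as a subunit of a mitochondrial dehydrogenase complex. The counts by name are therefore not counts by subunit. Of the 42 members classed by the ribosomal protein nomenclature as having a bacterial homologue 39 were positive (92.9%), with a median of 0.49. Of the 27 not classed so, Mrps18a and Mrps36 among them, 20 were positive (74.1%), with a median of 0.32. These differences between classes were not tested.

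Among the small subunit genes the largest shared part was that of Mrps16, whose protein has a bacterial homologue and whose loss in humans impairs oxidative phosphorylation. Its log2 ratios were 0.67, 0.71, 0.79 and 1.03 on replicates 1 to 4 and 1.46, 1.84, 3.28 and -0.40 on replicates 5 to 8. The 4 arrays with treated RNA in Cy3 lay close together, while those in Cy5 held both the highest value and the only negative one, so that the orientations overlapped. The shared part was 1.17 ± 0.39 (SE of the fit, n = 8 arrays), a ratio of 2.25-fold (limma, adjusted p = 0.251).

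Mrps24, the counterpart of the bacterial protein at the entry of the messenger RNA channel, read 1.45, 2.44, 0.26 and 0.36 on replicates 1 to 4. On replicates 5 to 8 it read 0.07, 0.83, 1.05 and 1.86. It was positive on 8 of 8 arrays with overlapping orientations, and its shared part was 1.04 ± 0.35 (limma, adjusted p = 0.255). Mrps17 read 0.58, 0.80 and 0.13 on replicates 1 to 3, had no value on replicate 4, and read 2.71, 2.02, 0.18 and 1.33 on replicates 5 to 8. All 7 values were positive, 3 of them above the highest Cy3 array, and the shared part was 1.03 ± 0.38 (limma, adjusted p = 0.292). Mrps28 read 1.05, 1.16, 1.15 and 0.34 on replicates 1 to 4 and 0.24, 2.20, 1.10 and -0.14 on replicates 5 to 8. Only replicate 8 was below 0, and the shared part was 0.89 ± 0.33 (limma, adjusted p = 0.295).

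In the large subunit Mrpl49, which has no bacterial homologue, had the largest shared part of all members and the largest SE. It read 4.31, -0.29 and 3.59 on replicates 1, 3 and 4 and 4.67, 2.53 and 0.08 on replicates 5, 7 and 8, with no computable ratio on replicates 2 and 6. Values over 2 and values near 0 thus occurred in both orientations, and the shared part was 2.48 ± 0.76 over 6 arrays (limma, adjusted p = 0.243). Mrpl12, which belongs to the flexible stalk that recruits translation factors, read 1.32, 1.29, 1.08 and -0.14 on replicates 1 to 4 and 0.52, 0.51, 0.98 and 0.42 on replicates 5 to 8. Replicate 4 was its only negative array, and the shared part was 0.75 ± 0.29 (limma, adjusted p = 0.308). Mrpl14, a protein of the interface between the subunits, had a shared part of 1.04 ± 0.44 and leaned on replicate 5 at 3.52, against -0.74 to 1.68 on the other arrays. Without replicate 5 it was 0.66. Mrpl55 had a shared part of 0.90 ± 0.49, which was 0.53 without replicate 5 and 1.43 without replicate 8. The other members with an unadjusted p under 0.05, named after their values were seen, were Mrpl36 at 0.70, Mrps10 at 0.79, Mrps18a at 0.73, Mrps30 at 0.72 and Mrps6 at 0.63.

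**Figure D3:**
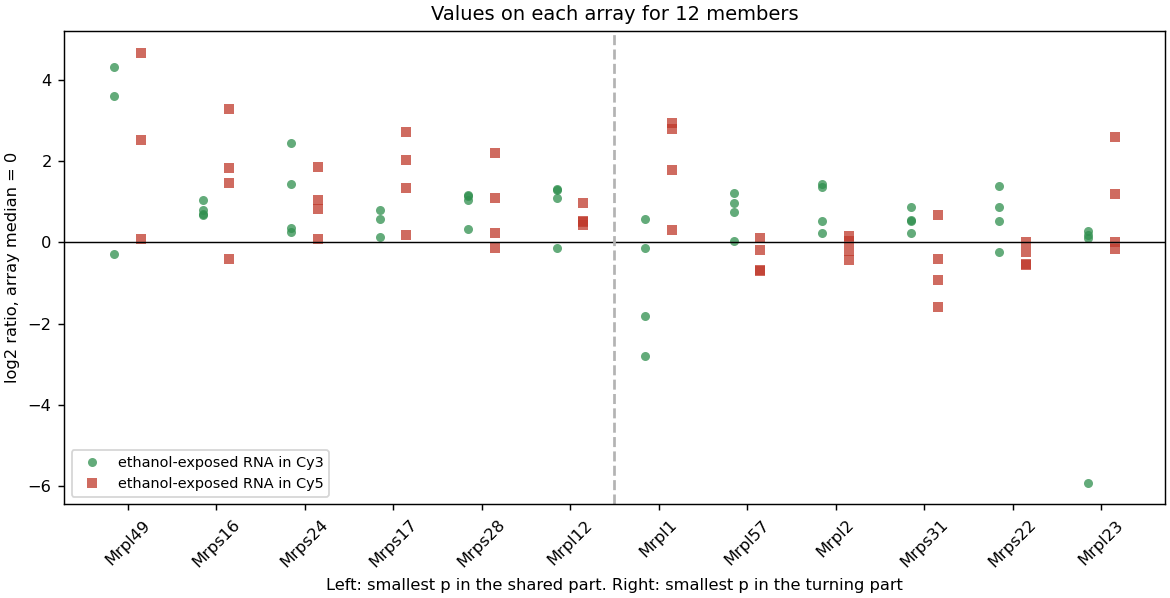
Log2 ratio (y axis, array median at 0) on each array for the 6 members with the smallest p in the shared part (left of the dashed line) and the 6 with the smallest p in the turning part (right). Circles are arrays with treated RNA in Cy3 and squares those in Cy5; the left members lie mostly above 0 in both orientations, and Mrpl23 holds the lowest point at -5.92.

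Some members lay on the same side on all their arrays. There were 11 members positive on every array with a value, 15.9% of the 69, against 1.82% of all probes, and none was negative on every array (1.75% of all probes). They were, named for this after their values were seen, Mrpl3, Mrpl34 and Mrpl40 of the large subunit and Mrps9, Mrps10, Mrps11, Mrps12, Mrps17, Mrps18a, Mrps24 and Mrps25, of which Mrpl34 and Mrps17 had 7 values. A small spread makes 1 sign on all arrays more likely. Among probes with 8 values and an SE of at most 0.36, the share positive on every array was 19.6% for members and 4.94% for all. Mrpl3, whose bacterial counterpart lies near the catalytic centre, read 0.71, 0.56, 0.53 and 0.30 on replicates 1 to 4 and 0.72, 0.55, 0.35 and 0.64 on replicates 5 to 8. All 8 arrays lay within a band of 0.30 to 0.72, and the orientations overlapped throughout. Mrps12, the decoding-centre protein, ran from 0.07 to 0.81, and Mrps11, of the platform of the small subunit, from 0.03 to 0.98.

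These steady members did not pass either. Moderation draws each probe's spread toward that of all probes, so that Mrpl3 had an SE of 0.26 in the moderated fit and 0.058 from its own 8 values. Without moderation 23 members had an unadjusted p under 0.05 on the positive side (33.3%), where 6.5% of all probes were called. None passed after adjustment over all probes (limma's linear fit without moderation, lowest adjusted p among members 0.151, that of Mrpl3 at 0.55, followed by Mrps11 at 0.57 and Mrps12 at 0.46). That fit was added after the data were seen.

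The 10 negative members lay between -0.49 and -0.01, none with an unadjusted p under 0.05 (limma). The most negative of the large subunit were Mrpl42 at -0.49 ± 0.38, Mrpl23 at -0.21 ± 0.69 and Mrpl45, which binds the inner membrane, at -0.05 ± 0.29. Those of the small subunit were Mrps5 at -0.45 ± 0.45, Mrps23 at -0.18 ± 0.43 and Mrps18c at -0.10 ± 0.33. The sign of 4 of these changed when 1 array was left out: Mrpl23 was 0.55 without replicate 1, Mrps23 was 0.17 without replicate 2 and 0.09 without replicate 6, Mrpl45 was 0.07 without replicate 3 and 0.00029 without replicate 6, and Mrps18c was 0.02 without replicate 7 and 0.01 without replicate 8. Mrpl42 was -0.23 without replicate 4 and Mrps5 was -0.18 without replicate 1. Mrps5 was negative on 6 of 8 arrays, between -1.97 and 1.48. The other 4, Mrpl51, Mrpl54, Mrpl58 and Mrps31, lay between -0.04 and -0.01.

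Of 544 member values 9 lay below -2, each in a different gene. Mrpl23 read -5.92 on replicate 1 and -0.15 to 2.59 elsewhere. Mrpl58, a peptidyl-tRNA hydrolase built into the large subunit, read -3.80 on replicate 3 and 0.03 to 0.97 elsewhere. Mrps7 read -2.75 on replicate 1 and 0.32 to 1.66 elsewhere. Away from that 1 array, Mrpl23 was positive on 6 of 7 arrays and Mrpl58 and Mrps7 on 7 of 7. Mrpl58 and Mrps7 were picked here after their values were seen. None of the member values was at the smallest ratio the file can hold, 0.001. On the other side, 24 values exceeded 2.

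Since most members had a positive shared part, the sequence before the members' transcription starts was examined for letters bound by NRF1 and by ETS factors. These are 2 classes of regulators known to act at nuclear genes for mitochondrial proteins. RefSeq promoter windows (GRCm38.p6) were matched for 62 of the 69 tested members; Mrpl4, Mrpl13, Mrpl15, Mrpl19, Mrpl54, Mrps28 and Mrps34 were not matched. The 250 bases before the start were searched on both strands for the NRF1 core, a GC-rich motif whose matches are the capitals in Mrpl12, Mrps21 and Mrpl44 below, and for CCGGAAG (ETS). The motifs could overlap, and a gene counted once if any of its windows held a match. The NRF1 letters were in 10 of 62 members (16.1%), against 5.84% of 17492 protein-coding genes and 4.23% of all 27025 genes of the table. The ETS letters were in 14 members (22.6%), against 10.2% and 7.83%. One or the other was in 23 members, and 1 member held both. The YY1 letters AAGATGGC were in 4 members (6.45%, against 1.77% of protein-coding genes) and TATAAA in 5 (8.06%, against 13.7%). The median GC content of the windows was 58.2% for members and 55.6% for protein-coding genes, and its part in these shares was not tested.

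The median ratio was lower with a match for NRF1 and ETS and higher with one for YY1 and TATAAA. The 10 members with the NRF1 letters had a median shared part of 0.37 and the 52 without them 0.42. For the ETS letters the medians were 0.25 with and 0.46 without, for the YY1 letters 0.52 (4 members) and 0.38, and for TATAAA 0.58 (5 members) and 0.39. These differences were not tested. To show how alike or unlike these promoters are, the stretches around the match are given for the 6 members with the smallest shared-part p among those with NRF1 or ETS letters before their outermost start, and the last 90 bases before the start for the 2 with the smallest p among those with neither in any window. All are 5′ to 3′ on the gene's strand, with the matched letters in capitals.
Mrpl12 (NRF1, chr11:120484521-120484600, plus strand): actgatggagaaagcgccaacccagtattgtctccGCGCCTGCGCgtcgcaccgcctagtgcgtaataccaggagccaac
Mrps21 (NRF1, chr3:95871561-95871640, minus strand): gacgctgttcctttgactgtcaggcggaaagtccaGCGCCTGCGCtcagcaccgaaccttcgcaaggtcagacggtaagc
Mrpl44 (NRF1, chr1:79775948-79776017, plus strand): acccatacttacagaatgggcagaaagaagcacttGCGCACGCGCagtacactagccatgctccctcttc
Mrps18a (ETS, chr17:46110943-46111003, plus strand): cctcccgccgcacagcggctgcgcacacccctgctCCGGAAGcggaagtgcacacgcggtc
Mrpl3 (ETS, chr9:105053214-105053267, plus strand): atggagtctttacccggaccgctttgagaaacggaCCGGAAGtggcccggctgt
Mrpl34 (ETS, chr8:71464854-71464925, plus strand): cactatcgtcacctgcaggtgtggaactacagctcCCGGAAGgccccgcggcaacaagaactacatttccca
Mrpl49 (neither, chr19:6057756-6057845, minus strand): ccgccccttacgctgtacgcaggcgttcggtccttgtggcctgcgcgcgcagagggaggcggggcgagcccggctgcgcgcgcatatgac
Mrps24 (neither, chr11:5707702-5707791, minus strand): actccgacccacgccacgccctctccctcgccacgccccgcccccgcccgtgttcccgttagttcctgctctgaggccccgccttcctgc
The ETS letters began 19 to 37 bases before the start in Mrpl3, Mrps18a and Mrpl34, and the NRF1 letters 35 to 91 bases before it in Mrpl44, Mrpl12 and Mrps21. Mrpl3 and Mrps18a, positive on 8 of 8 arrays, held ETS letters, while Mrps24, also positive on 8 of 8, held neither. A match describes the letters only.

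In the turning part the members lay near 0 and none passed. The median was -0.08, with 42 of 69 negative (60.9%), against a median of 0.11 and 43.1% negative over all probes. No member reached an adjusted p of 0.05 (limma, lowest adjusted p = 0.165), while 1.56% of all probes did. At an unadjusted p under 0.05 there was 1 member, positive, where 8.69% of all probes were called on the positive side and 5.14% on the negative side. The sign of the members' median depended on the centring. It was 0.23 as deposited, when that of all probes was 0.42. Relative to all probes the members were lower by about the same amount in both, at -0.19 log2 units.

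**Figure D4:**
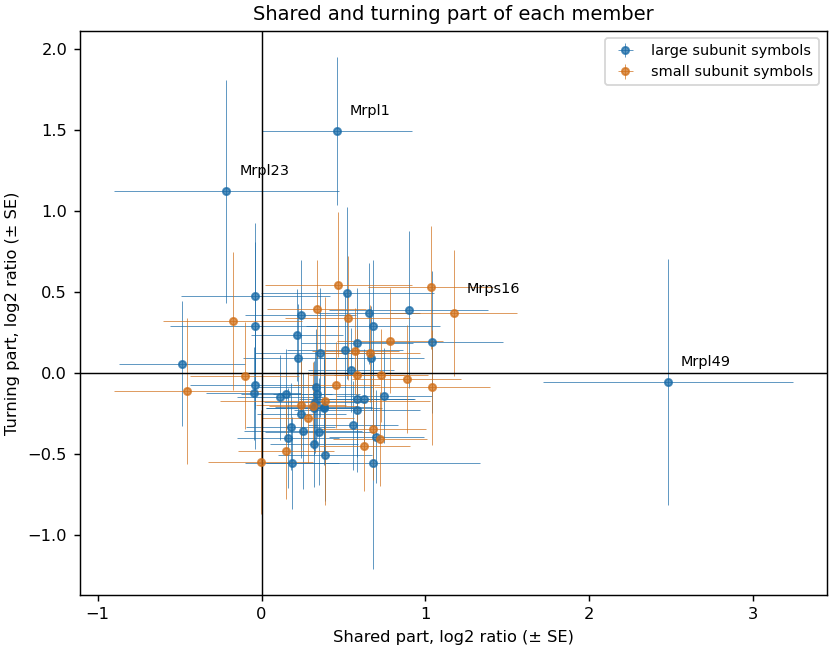
Shared part (x axis) against turning part (y axis) of each of the 69 members, in log2 units with the SE of the fit as bars. Most points lie right of 0 and within 0.5 of the horizontal line; Mrpl1 stands highest, at a turning part of 1.49.

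The largest turning part was that of Mrpl1, the counterpart of the bacterial stalk protein beside the site where spent transfer RNA leaves. It read -2.80, -0.13, 0.59 and -1.80 on replicates 1 to 4 and 0.31, 2.80, 1.77 and 2.94 on replicates 5 to 8. The orientations overlapped only through replicates 3 and 5, and the turning part was 1.49 ± 0.46 (n = 8 arrays; limma, adjusted p = 0.165). Its lowest adjusted p under any alternative was 0.0722, with the values as deposited. Mrpl23, next in size at 1.12 ± 0.69, was 0.36 without replicate 1.

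On the negative side the values were smaller. Mrpl57 read 0.97, 1.23, 0.02 and 0.75 on replicates 1 to 4 and -0.18, -0.69, 0.10 and -0.72 on replicates 5 to 8, with a turning part of -0.56 ± 0.29 (limma, adjusted p = 0.434). Mrpl2, whose bacterial counterpart lies at the peptidyl transferase centre, read 1.43, 0.54, 1.37 and 0.23 and then 0.04, -0.22, 0.15 and -0.44. Every array with treated RNA in Cy3 was above every array in Cy5 for Mrpl2, and its turning part was -0.51 ± 0.29 (limma, adjusted p = 0.483). Mrps31 read 0.54, 0.53, 0.88 and 0.23 and then -0.92, -0.40, -1.58 and 0.68, overlapping through replicate 8, with a turning part of -0.55 ± 0.32. Mrps22, needed for assembly of the small subunit, read 1.38, 0.53, 0.87 and -0.24 and then -0.56, 0.01, -0.54 and -0.24, with a turning part of -0.48 ± 0.29. The remaining members with the highest or lowest values were Mrpl20 at -0.56 ± 0.65, Mrps6 at -0.45 ± 0.28, Mrps7 at 0.55 ± 0.45, Mrps17 at 0.53 ± 0.38, Mrpl50 at 0.49 ± 0.53 and Mrps34 at 0.39 ± 0.30. Several of these rested on single arrays. The turning part of Mrpl20 was -1.30 without replicate 5 and -0.14 without replicate 8. That of Mrps7 was 0.10 without replicate 1, that of Mrps17 0.34 without replicate 5, and that of Mrpl50 changed sign, to -0.02, without replicate 4.

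The orientations did not overlap for 4 members, all with Cy3 arrays above (5.80% of members, against 5.21% of all probes). These were Mrpl2, Mrpl41, Mrpl52 and Mrps6. No member had all Cy5 arrays above, where 5.68% of all probes did.

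Set beside related gene lists on the same arrays, the centred medians of the mitochondrial ribosomal proteins had the same sign in both orientations, and those of the cytosolic ribosomal proteins did not. This contrast depended on the centring: as deposited, the median of either list was positive on 7 of 8 arrays, with -0.01 on replicate 4 for the members and -0.03 on replicate 7 for the cytosolic list. After centring, the 74 probes for cytosolic ribosomal proteins had medians of 0.50 to 1.24 with treated RNA in Cy3 and -0.25 to -0.05 in Cy5, and for 43.2% of them the Cy3 arrays lay above all Cy5 arrays. Over both orientations their shared part had a median of 0.34, close to the members' 0.39, and their turning part had a median of -0.31, against -0.08. Many cytosolic probes shared 1 ratio on an array. Their median and lower quartile were the same value on replicate 5 (-0.18) and on replicate 7 (-0.05). On replicate 1 their median was 1.235 and their upper quartile 1.237. The part of these shared values in the list's medians, overlap, signs and correlation was not tested. Subunits of the respiratory chain and ATP synthase, 78 probes, had medians of 0.21 to 0.65 in Cy3 and -0.10 to 0.27 in Cy5, with a shared part of 0.35. The shared part was positive for 85.5% of the members, 83.8% of the cytosolic ribosomal and 78.2% of the respiratory chain probes. Being positive on every array was found for 15.9% of the members, 2.70% of the cytosolic ribosomal and 3.85% of the respiratory chain probes. The lists share all 8 arrays, and the differences between them were not tested.

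Array by array, members varied largely apart from each other. The mean Pearson correlation over all pairs of the 62 members with 8 values was 0.05, against 0.03 over all 10486 such probes, 0.22 for the cytosolic ribosomal and 0.04 for the respiratory chain probes. Within orientations the values were 0.04, 0.03, 0.19 and 0.06. The points of each correlation are the same 8 arrays.

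Other genes of mitochondrial gene expression lay on both sides. Of 36 probes for 35 genes 22 were positive in the shared part (61.1%, against 46.1% of all probes), with a median of 0.22, and none passed after adjustment in either part (limma, lowest adjusted p = 0.263 in the shared and 0.127 in the turning part). At an unadjusted p under 0.05 the shared part gave 2 positive and 2 negative genes, 5.56% of the 36 probes on either side, where 4.88% of all probes were called positive and 9.01% negative. The rRNA methyltransferase gene Mrm3 read 1.12 ± 0.39 and Mterf4, which acts in ribosome assembly, 1.04 ± 0.42. Nsun4, the rRNA methyltransferase whose protein binds MTERF4, read -1.15 ± 0.41, and Polg2, the accessory subunit of the mitochondrial DNA polymerase, -0.66 ± 0.29. In the turning part Mterf4 read 1.57 ± 0.42, Mrm3 -0.95 ± 0.39, Polg2 0.93 ± 0.29 and the RNA-binding gene Lrpprc 1.13 ± 0.49.

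By class, 9 of the 15 tested of 22 other ribosome subunits and assembly factors listed were positive in the shared part, among them Dap3, a small subunit protein named outside the Mrps series, at 0.43 ± 0.32. All 3 translation factors tested, of 10 listed, were positive (Mtif2 at 0.37, Tsfm at 0.44 and Gfm1 at 0.32), as were 6 of 9 probes for the 8 mitochondrial aminoacyl-tRNA synthetases tested of 17. Of 9 genes tested of 11 for mitochondrial DNA and transcription 4 were positive, with a median of -0.33, and the DNA-packaging factor Tfam read -0.81 ± 0.39. None of these passed.

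Mrpl53, Mrpl21 and Mrpl38 lacked values on enough arrays to be tested. Mrpl53 had 2 values, -0.21 on replicate 4 and 0.40 on replicate 5. Mrpl21 had 5, all positive, from 0.20 on replicate 4 to 2.14 on replicate 6. Mrpl38 had 6, from -1.49 on replicate 4 to 1.12 on replicate 1, and only 2 of them with treated RNA in Cy5.

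Of the series as a whole, the number of probes with a usable ratio ran from 16274 to 18802 over the arrays. The number of arrays limits the precision. Ratios cannot show whether a cell type is present. Values on all 8 arrays were found for all 7 neural progenitor markers looked for and for 4 of 7 neuronal ones. They were also found for 3 of 4 astrocyte, 4 of 5 oligodendrocyte lineage, 2 of 3 endothelial and 6 of 7 proliferation markers. Of 3 microglial markers 2 were on the array, and none had enough values to be tested. Markers of dividing cells also had positive shared parts: 5 of 7 were positive, with a median of 1.60 and array medians from -0.19 on replicate 4 to 3.81 on replicate 3. The 4 neuronal marker probes had a median of -0.56, with array medians from -1.80 on replicate 4 to 0.50 on replicate 8. Of the other marker lists, neural progenitor probes were positive for 7 of 9 (median 0.32) and oligodendrocyte lineage probes for 3 of 6 (-0.16). Astrocyte probes were positive for 1 of 4 (-0.66) and endothelial ones for 1 of 3 (-0.14). The part of these cell populations in the members' values was not tested.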

How the data were processed

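The deposited table holds 1 log2 ratio per probe and array. Scale and rounding were worked out from the values; for the scanner, background and normalization the sources used here give nothing. The authors' log2 values below a ratio of 0.1 lay on a grid of ratios rounded to 3 decimals on every array (100% within 0.0011). Exact zeros (2565 to 5200 per array) and each array's highest value (108 to 464) were treated as not computable. The deposited array medians ran from -0.435 to -0.324 with treated RNA in Cy3 and from 0.023 to 0.516 in Cy5. Each array was centred on its median. The direction and the authors' own centring remain unknown. Probes with 3 or more values in each orientation were fitted with limma 3.58.1 in R 4.3.3 (lmFit, eBayes) with a shared and a turning coefficient and Benjamini-Hochberg adjustment across the 15345 probes tested. The fit was tested on simulated data. Symbols come from the platform annotation; all 72 members kept theirs through Entrez numbers.

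The members and all lists were chosen with earlier results of these data known. Values on every array are given for the 6 members with the smallest p in each part, and the shared or turning part for the 3 most positive and 3 most negative of each subunit. Genes of the pathway lists are named at an unadjusted p under 0.05 in either part. Others are named after their values were seen, among them Dap3, Mtif2, Tsfm, Gfm1 and Tfam. No pairing was used in the main fit, since no label says that arrays of 1 code number share a culture. Arrays with the same code number (1, 3 and 5) had deviations correlated at 0.044, 0.014 and -0.016. These correlations do not settle whether cultures were shared. The alternatives were no centring, scaling of the spread, other rules for missing values, leaving out arrays, a block on code number, centring on probes with 8 values and a fit without moderation.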

Additional observations from a re-analysis of the deposited data

Results flagged for a closer look

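For 8 of 45 groups of 4 arrays tested among the named members and the member median, 1 array stood far from the other 3 of its orientation. Chance marks about 1 group in 20 when groups are not picked by their values. The named members were picked by theirs, so that this rate cannot be set against the count. With treated RNA in Cy3, Mrpl23 read -5.92 on replicate 1 against 0.10 to 0.28, and Mrpl55 read 1.77 on replicate 1 against -0.03 to 0.25. On replicate 2 Mrps23 read -2.59 against 0.01 to 0.44, and Mrps18c 0.96 against -0.49 to -0.38. On replicate 4 Mrpl50 read -3.03 against 0.76 to 1.54, Mrpl12 -0.14 against 1.08 to 1.32, and Mrps28 0.34 against 1.05 to 1.16. With treated RNA in Cy5, Mrps23 read -1.45 on replicate 6 against 0.61 to 0.77. Mrps23, whose protein has no bacterial homologue, was thus near or above 0 on 6 of 8 arrays although its shared part was negative. The member median itself had no such array in either orientation.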

How the results depend on the processing

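No member passed an adjusted p of 0.05 in either part under any alternative run, and the members' median shared part stayed between 0.32 (exact zeros kept) and 0.49 (without the r arrays). It was 0.34 to 0.46 when each array was left out in turn. Between 83.1% and 92.8% of the members tested were positive in all settings, and the members' median was positive on all arrays used, except with the values as deposited and with centring on probes with 8 values, where it was positive on 87.5% of them. The count of members with an unadjusted p under 0.05 and a positive shared part, 12, was 7 without the r arrays, 20 with centring on probes with 8 values, 23 without moderation (both added after seeing the data) and 5 to 12 over the fits that leave out 1 array. Of all probes 4.88% were called so in the main fit and 6.5% without moderation. The shares of all probes in the other fits are not given here. The members' median turning part, -0.08, was 0.23 as deposited and 0.14 with exact zeros kept. Without centring, a turning part also carries the difference in deposited array medians between the orientations. These medians were below 0 on every array with treated RNA in Cy3 and above 0 on every array in Cy5. The cause of the value with exact zeros kept was not tested. With code number as a replicate block over the 6 arrays that share one, 0 of 67 members passed in the turning part. Their median was -0.17, and no member's call changed. Of all 11569 probes tested in that fit 85 were called. No label says that a shared code number is a shared culture. Over all probes the turning part gave 239 calls, 417 as deposited, 73 without the r arrays, 129 without moderation and 134 to 175 with 1 array left out. Of 806 values of single named members under alternatives none crossed the threshold, while 15 of 403 shared and 41 of 403 turning values changed sign. The table gives no intensities, so signal over background is unknown.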
